A study of Homo sapiens with 6 samples.

Results

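STEAP4 and STEAP1B are the only genes of the STEAP family among the 107 genes of a table that compares H1975 lung adenocarcinoma cells expressing HER2 S310F with cells carrying the empty vector (EV). They were taken from the table by name, 2 of 107 genes, because they changed in opposite directions in it, so their differences between the groups are described here without a test. H1975 is a human EGFR-mutated line, and both groups carry that background. EV cells received the vector alone, and S310F cells stably express HER2 with the S310F change in its extracellular part. Both were made by lentiviral infection and puromycin selection, and they grew in the same medium. Each group had 3 samples, and wild-type HER2 was not among the groups, so the amount of HER2 and its mutation cannot be told apart. The study's methods speak of independent experiments for its data in general, but neither they nor the labels say whether the 3 sequenced samples of a group came from separate cultures, so their spread may be technical. ERBB2, the gene of HER2, was 18.3 times as high in S310F cells as in EV cells, which fits the labels.

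STEAP proteins span the membrane several times, bind heme and take their name from an antigen of prostate epithelium. STEAP2, STEAP3 and STEAP4 reduce ferric iron and cupric copper at the membrane with electrons from NADPH, which they bind through an oxidoreductase domain inside the cell. STEAP1 has no such domain, and STEAP1B is a little-studied gene named for its likeness to STEAP1. STEAP4 is also known as TNFAIP9, because TNF induces it, and as STAMP2, and it has been studied in inflamed fat tissue and in the uptake of metals.

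Both genes lie on the minus strand of chromosome 7 (GRCh38, coordinates as in the deposited table), STEAP4 at chr7:88270892-88306891 and STEAP1B at chr7:22419444-22727613, 65.5 Mb apart. STEAP1 and STEAP2 lie 1.85 and 1.86 Mb from STEAP4, while STEAP3 is on chromosome 2. STEAP1B is 67.4 Mb from STEAP1, the family member it resembles most in sequence. The promoters of the pair, from RefSeq on GRCh38.p14 and each reaching from 250 bases before the gene's start to 50 bases after it, are shown because the likeness already begins there. Capitals mark the bases at which they differ. STEAP1B is at chr7:22500139-22500438 on the minus strand and STEAP1 at chr7:90154219-90154518 on the plus strand.
STEAP1B: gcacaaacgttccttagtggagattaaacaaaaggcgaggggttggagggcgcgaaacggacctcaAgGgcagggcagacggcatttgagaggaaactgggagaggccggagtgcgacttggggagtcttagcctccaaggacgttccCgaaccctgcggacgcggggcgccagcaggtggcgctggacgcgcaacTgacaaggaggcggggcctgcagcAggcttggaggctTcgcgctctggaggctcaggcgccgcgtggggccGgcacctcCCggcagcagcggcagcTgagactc
STEAP1: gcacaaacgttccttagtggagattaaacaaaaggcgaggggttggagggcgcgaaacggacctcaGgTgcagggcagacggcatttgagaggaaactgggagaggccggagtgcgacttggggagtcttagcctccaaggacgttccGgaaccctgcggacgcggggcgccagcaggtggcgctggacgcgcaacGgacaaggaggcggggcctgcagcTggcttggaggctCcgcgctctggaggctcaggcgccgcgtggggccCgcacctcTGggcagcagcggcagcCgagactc
They differed at 10 of 300 bases (96.7% identity), with no insertion or deletion, and the longest identical stretch was 79 bases. These windows follow the RefSeq starts. In GENCODE release 29 the coding transcript STEAP1B-201 starts at base 22500498, so the STEAP1B window lies within its span. The likeness goes on farther into the transcribed part. A stretch of 239 coding bases within 1 exon is shown next, because it holds the longest identical run found between coding sequences of these genes, 149 bases. It covers bases 199 to 437 of the coding sequence in both (GENCODE release 29), at chr7:22493484-22493722 on the minus strand for STEAP1B and at chr7:90160919-90161157 on the plus strand for STEAP1, and capitals again mark differing bases.
STEAP1B: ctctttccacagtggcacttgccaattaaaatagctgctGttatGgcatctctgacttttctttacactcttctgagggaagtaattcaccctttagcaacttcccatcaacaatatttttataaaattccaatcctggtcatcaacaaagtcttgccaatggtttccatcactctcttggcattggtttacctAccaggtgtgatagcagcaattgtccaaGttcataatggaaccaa
STEAP1: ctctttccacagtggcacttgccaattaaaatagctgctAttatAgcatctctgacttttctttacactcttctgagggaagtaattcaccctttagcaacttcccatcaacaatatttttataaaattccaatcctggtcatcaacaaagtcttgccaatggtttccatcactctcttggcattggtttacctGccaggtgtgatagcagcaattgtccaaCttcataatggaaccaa
Only 4 of the 239 bases differed. Base by base, STEAP4 aligned little with this pair. Its coding sequence gave a local alignment of 42 bases with that of STEAP1B, at 78.6% identity. Protein sequences were not compared, so likeness at that level was not tested.

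STEAP4 was low in S310F cells. Values are reads scaled by the authors with 1 size factor per sample, and 1 read was worth 0.919 to 1.09 units in the 6 samples. In EV cells STEAP4 had values of 52.4, 35.6 and 36.0 (replicates 1, 2 and 3, the order kept below). In S310F cells it had values of 9.19, 5.87 and 8.75. The lowest EV value was 3.88 times the highest S310F value, and EV replicate 1 stood above the other EV samples. These values come from 52, 37 and 35 reads in EV cells and from 10, 6 and 8 reads in S310F cells. EV cells had a mean of 41.3 ± 9.56 and S310F cells of 7.94 ± 1.81 (SD, n = 3 each), so the EV mean was 5.21 times the S310F mean. On the log2(value + 1) scale the difference was -2.24 with a standard error of 0.260 from limma over the 107 genes. This scale understates the change of low genes. From the summed reads, 124 in EV and 24 in S310F cells, the 95% interval of the fold was 3.34 to 8.42 (exact binomial, counting error only). A bulk value does not show whether fewer cells made STEAP4 RNA or each cell made less.

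STEAP1B was high in S310F cells. Its values were 15.1, 19.3 and 14.4 in the EV samples and 96.5, 71.4 and 51.4 in the S310F samples. The groups did not overlap, and the lowest S310F value was 2.67 times the highest EV value. The S310F samples were spread over a wide range, with the highest 1.88 times the lowest, while the EV samples lay within a factor of 1.34. The reads were 15, 20 and 14 in EV cells and 105, 73 and 47 in S310F cells. EV cells had a mean of 16.3 ± 2.64 and S310F cells of 73.1 ± 22.6 (SD, n = 3 each), so the S310F mean was 4.50 times the EV mean. The log2 difference was 2.07 with a standard error of 0.275. The summed reads of 49 and 225 gave a fold of 4.56 with a 95% interval of 3.34 to 6.35 (exact binomial, counting error only).

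**Figure D1:**
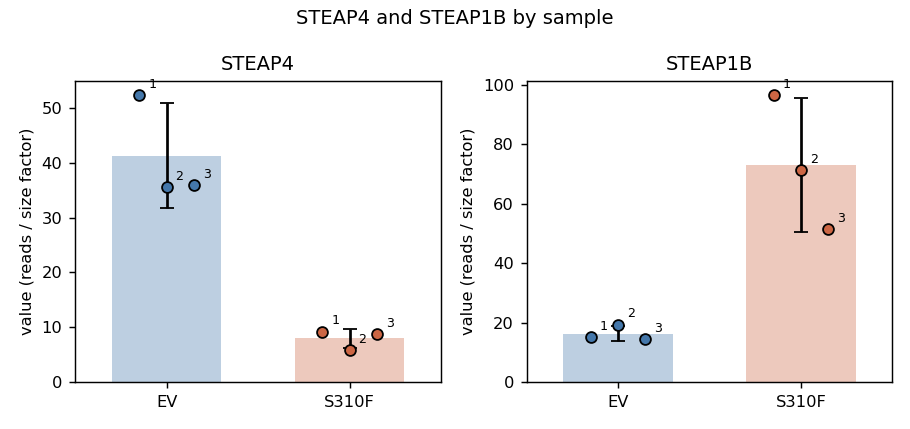
Values of STEAP4 (left) and STEAP1B (right), as reads divided by the size factor, in EV and S310F cells. Points are samples with their replicate number, bars are means and error bars are SD (n = 3); STEAP4 lies between 35.6 and 52.4 in EV and between 5.87 and 9.19 in S310F cells, and STEAP1B between 14.4 and 19.3 in EV and between 51.4 and 96.5 in S310F cells.

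Among the 107 listed genes, 103 (96.3%) passed an adjusted p under 0.05 from limma and a log2 difference of at least 1 in size, and the groups did not overlap in 105 (98.1%). Both genes are among these, which follows from how the table was made. Higher in S310F cells were 34.6% of the genes and lower 61.7%. In size both stood near the ends of the table. STEAP4 had the 2nd lowest log2 difference of the 107, after HLA-DRA (-2.45) and before AC131392.1 (-2.07). STEAP1B ranked 5 from the top, after CNTN1 (2.15) and before ABCC9 (1.95). These neighbors were closer to each gene than its standard error, so the order among them is not resolved. The median size of the log2 difference over the table was 1.37. In level, both were among the lower genes. By the mean over all 6 samples STEAP4 ranked 100 of 107 (mean 24.6) and STEAP1B 81 (mean 44.7), against a median of 72.0 over the table.

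**Figure D2:**
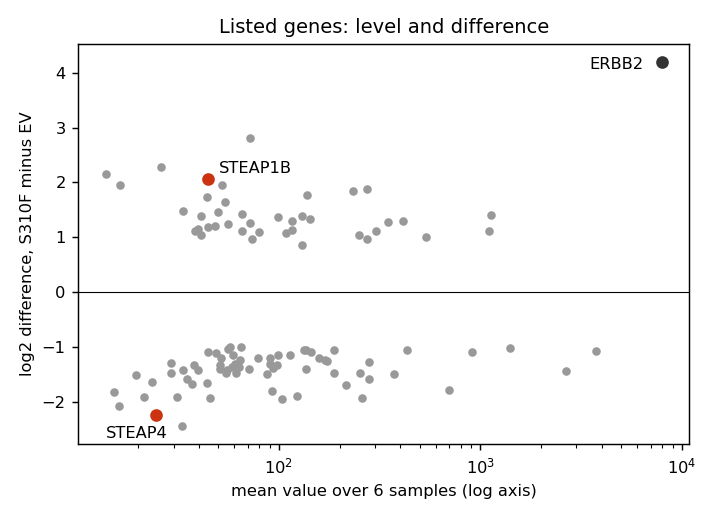
Mean value over the 6 samples (horizontal, log axis) against the log2 difference, S310F minus EV (vertical), for the 107 listed genes (points). STEAP4, at 24.6 and -2.24, and STEAP1B, at 44.7 and 2.07, are marked in red and ERBB2 in black.

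The spread between replicates was compared with counting error. For STEAP1B in S310F cells, the 3 read counts gave a chi-square per degree of freedom of 6.88, where 1 stands for counting error alone, and in EV cells it was 0.434. For STEAP4 it was 2.21 in EV cells and 0.423 in S310F cells. The medians over the listed genes were 1.503 in EV and 4.41 in S310F cells, so S310F samples spread widely in many genes. By counting error alone, STEAP4 in S310F cells was the least precise of the 4 pairs of gene and group. Its error was 35.4% for a single sample with the mean read count, and that of the summed reads is smaller. By the spread between replicates, STEAP1B in S310F cells was the least precise. Its coefficient of variation was 30.9%, against 22.8% for STEAP4 in S310F cells. The 6 reads of STEAP4 in S310F replicate 2 allow 2.20 to 13.1 reads (95%, exact Poisson). The 105 reads of STEAP1B in S310F replicate 1 allow 85.9 to 127.

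The ratio of the genes differed between the groups. In EV replicates 1 to 3 the value of STEAP4 was 3.47, 1.85 and 2.50 times that of STEAP1B. In S310F replicates 1 to 3 the value of STEAP1B was 10.5, 12.2 and 5.88 times that of STEAP4. The exons differ in length, 11245 bases for STEAP4 and 6478 for STEAP1B, so levels of the genes were compared per kilobase of exon. The mean level per kilobase was 3.67 for STEAP4 and 2.51 for STEAP1B in EV cells, and 0.706 and 11.3 in S310F cells. In EV replicate 2 the levels per kilobase were almost equal, with STEAP4 1.07 times STEAP1B. The order in EV cells rests on the length used for STEAP1B, which is mostly that of noncoding transcripts, as described below. With only the 2143 bases in exons of its coding transcripts, a length chosen after seeing the data, and all reads assigned to them, STEAP1B would have a level per kilobase of 7.58 in EV and 34.1 in S310F cells. It would then be above STEAP4 in both groups.

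For each gene the 3 listed genes most like it were taken by Pearson's r of log2(value + 1) over the 6 samples. For STEAP4 these were RTN4RL1 (r = 0.98), SORT1 (r = 0.98) and RAB11FIP4 (r = 0.98), all lower in S310F cells. RTN4RL1, a receptor of the Nogo receptor family, had means of 237 ± 18.9 in EV and 101 ± 19.6 in S310F cells (SD, n = 3 each). SORT1, the sorting receptor sortilin, had means of 126 ± 10.3 and 54.8 ± 11.7. RAB11FIP4, an effector of RAB11 in recycling endosomes, had means of 24.2 ± 4.96 and 6.25 ± 2.20. For STEAP1B they included GEM (r = 0.99) and MAST4 (r = 0.99), both higher in S310F cells. GEM, a small GTPase of the RGK family, had means of 26.9 ± 4.63 and 62.5 ± 11.1. The kinase gene MAST4 had means of 192 ± 7.89 and 418 ± 62.7. Such values are high for most of a table selected on the same groups. The median absolute r was 0.92 with STEAP4 and 0.94 with STEAP1B over the other 106 genes. STEAP4 and STEAP1B had an r of -0.94 with each other over the 6 samples. After subtraction of the group means it was -0.06. With 3 samples per group this value cannot tell whether the genes move together, apart or separately within a group.

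The exons counted for STEAP1B hold several kinds of sequence. GENCODE release 29, whose coordinates were identical to those of the table for 107 of 107 genes, gives STEAP1B 9 transcripts, 4 coding and 5 noncoding. Joined, their exons cover 6478 bases, the length the table states. Exons of coding transcripts make up 2143 of these bases (33.1%), and 4335 (66.9%) belong to noncoding transcripts only. Most of the noncoding part lies upstream of the main coding exons, toward IL6, the gene of interleukin 6. The RefSeq record of STEAP1B ends at base 22500188, and 29.2% of the exon length lies within its span. A read counted for STEAP1B can thus come from the coding gene or from RNA of the upstream region, and the table does not separate them.

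Exons of other genes cover 961 bases (14.8%) of the STEAP1B exon length, none of them in an exon of a coding transcript. Nearly all of it, 915 bases (14.1%), lies under AC002480.1, an antisense gene on the plus strand at chr7:22563337-22573996 that is now named STEAP1B-AS1. IL6 covers 46 bases (0.710%), in the first exon of the noncoding transcript STEAP1B-209. IL6 is on the plus strand. The same 46 bases also lie in AC073072.1, now named IL6-AS1, which is on the same strand as STEAP1B. With counting by strand, the overlapped part would fall from 961 bases to these 46. The strand setting of the authors' counting is not given in the sources used here. None of the 3 genes is in the table, and their part in the STEAP1B values was not tested.

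**Figure D3:**
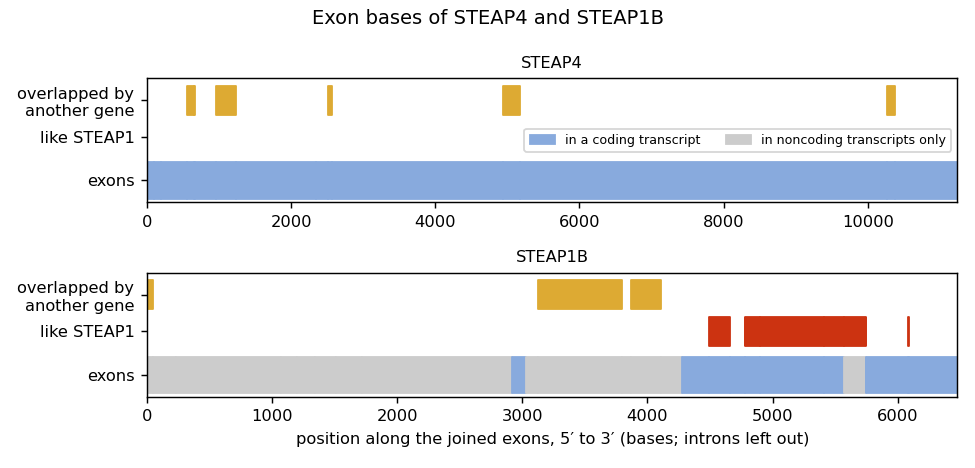
Joined exons of STEAP4 (top, 11245 bases) and STEAP1B (bottom, 6478 bases), 5′ to 3′ with introns left out, to scale along each axis. Blue marks bases in a coding transcript, gray bases in noncoding transcripts only, red bases that align to STEAP1 (at least 95% identity, 100 bases or longer), and yellow bases under exons of other genes; in STEAP1B the yellow part is noncoding and the red part covers 1140 bases.

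A larger share of the coding exons is shared with STEAP1. With alignments of 100 bases or longer and at least 95% identity, 1140 bases (17.6%) of the STEAP1B exon length aligned to STEAP1 transcripts, and 967 of the 2143 bases in exons of coding transcripts (45.1%). The aligned share was 63.6% of STEAP1B-201, 67.3% of STEAP1B-202, 79.1% of STEAP1B-204 and 85.4% of STEAP1B-205, which are the 4 coding transcripts. It was 100% of the noncoding transcript STEAP1B-207, a retained intron, and 0% of the other 4 noncoding transcripts. In the coding sequence, the first 762 of the 1026 bases of STEAP1B-201 matched STEAP1 with 14 differences (98.2% identity). The remaining bases, at the 3′ end of the coding sequence, did not align. Of the whole exon length, 67.4% was neither overlapped by another gene nor aligned to one.

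Whether a read can be assigned depends on its length, which is not given in the sources used here. Of all windows of 50 bases in the 4 coding transcripts, between 19.1% (STEAP1B-201) and 28.7% (STEAP1B-204) occur without any difference in STEAP1. For windows of 75 bases the share was 10.6% to 16.3%, for 100 bases 5.79% to 9.06%, and for 150 bases 0%. In STEAP1B-207, 2 windows of 150 bases (0.221%) also occur in STEAP1. Reads that fall in such windows can therefore match both genes equally well. How an aligner would place reads with mismatches or read pairs was not tested. STEAP1 is not among the 107 genes. Its values were not analyzed here, so a part of STEAP1 reads in the STEAP1B values was not tested. How the authors treated reads that match more than 1 gene is not given in the sources used here.

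**Figure D4:**
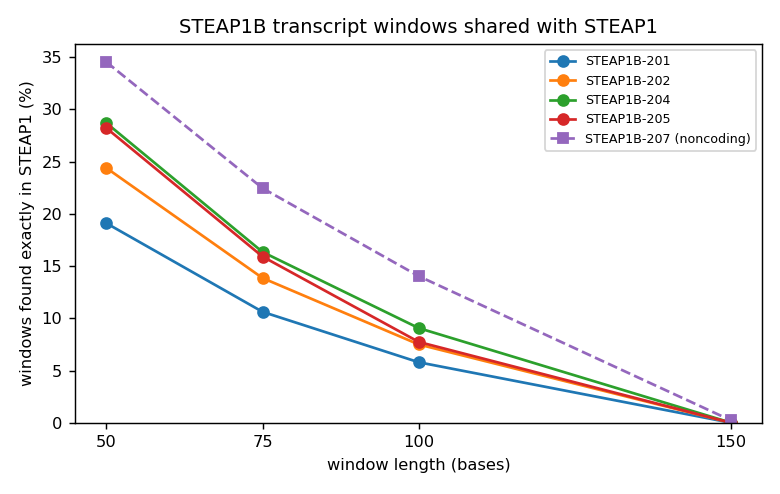
Percent of all windows of 50, 75, 100 and 150 bases in a STEAP1B transcript that occur exactly in a STEAP1 transcript, for the 4 coding transcripts (circles) and the retained-intron transcript STEAP1B-207 (squares). The share falls with length, from 19.1% to 28.7% in coding transcripts at 50 bases to 0% at 150 bases.

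STEAP4 is simpler. It has 3 transcripts, all coding, whose exons cover 11245 bases, of which the coding sequence makes up 12.5%. An antisense gene on the plus strand, AC003991.1, covers 782 of these bases (6.95%), in several separate pieces. No base of STEAP4 aligned to another STEAP gene by the same limits, and 92.8% of the exon length was neither overlapped nor aligned. In the longest transcript, 5.57% of windows of 50 bases and 1.83% of windows of 150 bases occur in another gene on either strand. AC003991.1 is not in the table, so its part in the STEAP4 values was not tested.
The STEAP4 promoter (RefSeq, GRCh38.p14, chr7:88306845-88307144, minus strand) is shown to compare with the STEAP1B promoter above. Factors of inflammation, C/EBP, STAT and NF-κB, are known regulators of genes in this setting, and capitals mark matches to their motifs on either strand.
STEAP4: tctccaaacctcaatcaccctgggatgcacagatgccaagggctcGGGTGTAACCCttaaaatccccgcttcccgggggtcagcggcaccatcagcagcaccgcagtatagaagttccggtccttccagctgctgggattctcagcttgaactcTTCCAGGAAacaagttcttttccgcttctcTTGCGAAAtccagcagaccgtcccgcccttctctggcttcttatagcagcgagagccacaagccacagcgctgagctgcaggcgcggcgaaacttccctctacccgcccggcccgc
The motifs searched were TTCNNNGAA for STAT, TTGCNNAA for C/EBP and, for NF-κB, GGG and CC with any 5 bases between them. STEAP4 had 1 STAT match, TTCCAGGAA, starting 96 bases before the gene's start, and 1 C/EBP match, TTGCGAAA, starting 66 bases before it. Its 2 NF-κB matches overlap each other 205 and 204 bases before the start, 1 on each strand. In its RefSeq window, STEAP1B had no match to the STAT or C/EBP letters and 3 to the NF-κB letters. Other starts of STEAP1B transcripts were not searched, such as those of STEAP1B-205 at base 22632925 and STEAP1B-209 at base 22727613. The comparison thus covers 1 promoter of STEAP1B and not the whole gene. Of the 35116 promoters of the same length, 7.66% held the STAT motif, 10.5% the C/EBP motif and 58.7% the NF-κB motif, so the last is common by itself. These are matches of letters, and no binding was measured.

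Genes that work beside the STEAP proteins were mostly outside the table. Of 41 genes for iron and copper handling, 0 were listed. They include STEAP1, STEAP2 and STEAP3, the transferrin receptor gene TFRC, the ferritin genes FTH1 and FTL and the copper transporter gene SLC31A1. For an unlisted gene, the table does not tell a small or uncertain difference from a gene that the authors left out for other reasons. Of 25 genes for inducers of STEAP4 and its partners in inflammation, 3 were listed, and these 3 were lower in S310F cells. As 61.7% of all listed genes were called lower, nothing is read from that count. The serum amyloid gene SAA1 had values of 3155, 4487 and 3831 in the EV samples and of 1011, 1226 and 2211 in the S310F samples. The log2 difference was -1.43. SAA2, its neighbor, had means of 1068 ± 30.04 in EV and 336 ± 180 in S310F cells (SD, n = 3 each) and a log2 difference of -1.79. The chemokine gene CCL2 had means of 255 ± 50.9 and 121 ± 22.6 and a log2 difference of -1.07. IL6, IL1B, TNF, CEBPB, CEBPD and STAT3 were among the 22 genes not listed. None of 11 markers of epithelium and lung adenocarcinoma and none of 8 markers of other cell types was in the table. The cell type could thus not be checked with these markers, and other listed genes were not used for it.

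The directions of the genes stayed the same with each sample left out and in each setting that kept both genes. The genes were chosen for these directions and their groups did not overlap, so leaving out 1 sample could not reverse them. With each sample left out in turn, the log2 difference of STEAP4 lay between -2.35 and -2.06 and that of STEAP1B between 1.85 and 2.29. The lowest value of STEAP1B was that without S310F replicate 1, its highest sample.

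**Figure D5:**
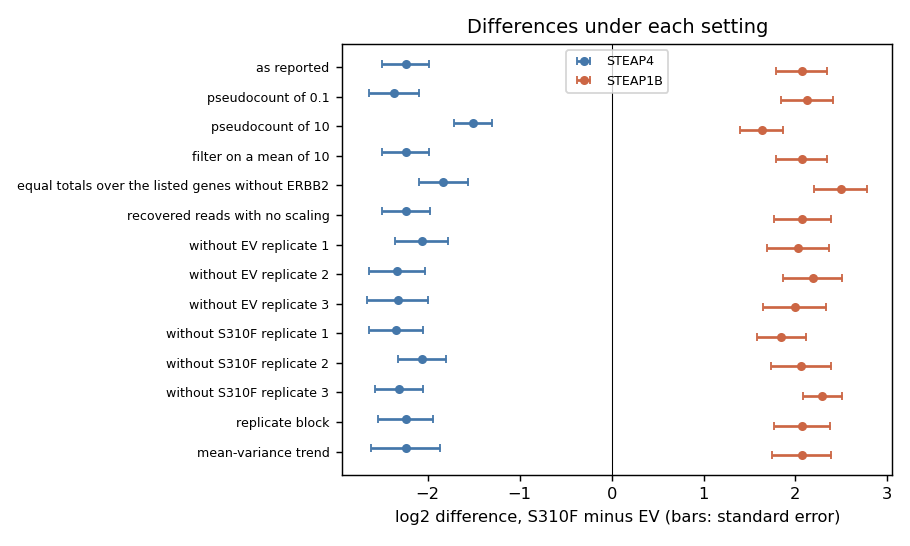
Log2 difference, S310F minus EV, of STEAP4 (blue) and STEAP1B (orange) as reported and under each other setting that kept both genes, with standard errors from limma as bars. STEAP4 lies below 0 and STEAP1B above 0 in each, from -2.37 to -1.51 and from 1.63 to 2.49.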

How the data were processed

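RNA of 3 EV and 3 S310F samples of H1975 cells was sequenced by Novogene. The deposited table holds 107 genes that passed the authors' limits on fold change and p. Its signal is the read count of a gene divided by a size factor, both made by the authors. It also holds group means, fold changes, p-values and adjusted p-values of the authors' own comparison, which were not used. GRCh38 is named in the submitters' processing notes. Aligner, counter, strand setting and read length are not given in the sources used here. The worth of 1 read in each sample was found from the values, and 100% of them were whole reads within 0.01. Library totals are unknown, and the reads of the listed genes sum to 25629 to 36072 per sample.

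Values were used as deposited. Differences and standard errors were computed over all 107 genes on log2(value + 1) with limma 3.58.1 (R 4.3.3), using moderated variances and Benjamini-Hochberg adjustment. The fit was tested on simulated data in which most genes did not change. The listed genes were selected as changed, so that test checks the code and not these results. Exon overlap was taken from GENCODE release 29, and likeness to other genes from BLAST 2.17.0 (95% identity over 100 bases) and exact windows. Intervals are at 95%. Both promoters were found in the RefSeq table. Tables were handled in Python 3.11.15 with pandas 2.3.3, numpy 2.4.6, scipy 1.17.1 and biopython 1.88.

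The 2 genes and all lists were chosen with earlier results of these data known. Named are ERBB2, both genes, the family, the listed genes of both lists, the 3 most alike, the neighbors in order, overlapping genes and the nearest listed gene on the chromosome. A gene that this rule names is not reported here. In the main fit, samples with the same number were not treated as pairs. The labels do not say whether they were paired.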

Additional observations from a re-analysis of the deposited data

How the results depend on the processing

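STEAP4 stayed lower and STEAP1B higher in S310F cells in each setting that kept them. The direction held for 107 of 107 genes wherever all were tested. The table was selected on the same groups, so this is a description only. A pseudocount of 10 gave log2 differences of -1.51 and 1.63. Scaling each sample to the same sum of listed genes, ERBB2 left out, gave -1.83 and 2.49. The listed genes were selected as different and more of them were lower in S310F cells. Equal sums therefore shift the differences upward, and this setting cannot test the size factors. That rescaling moved the median of all genes by 0.43, and relative to the median the differences were -1.15 and 3.18 against -1.13 and 3.18 as reported. It called 41 genes higher and 26 lower, against 37 and 66. A filter on a mean of 50 left out both genes and called 24 genes higher and 47 lower of the 75 kept, while a filter at 10 removed none. Leaving out each sample gave 34 to 41 genes higher and 54 to 64 lower. The replicate block left the differences at -2.24 and 2.07 and the counts at 37 and 66, with standard errors of 0.296 and 0.303. Same-numbered samples had correlations of their deviations from -0.02 to 0.06, and different-numbered samples from -0.23 to 0.23. With 3 samples per group these values cannot settle whether samples were paired. A mean-variance trend in limma also left the differences and counts unchanged. Its standard errors were 0.373 for STEAP4, the largest for that gene in any setting, and 0.318 for STEAP1B. Of the STEAP1B exon length, 14.8% was overlapped by other genes, 0.710% on the same strand, and 0% of the exon length of coding transcripts. With the length of coding transcripts only, chosen after seeing the data, the level per kilobase of STEAP1B over that of STEAP4 in EV cells went from 0.683 to 2.06. The planned count tests on recovered reads were not run, because the check required before them needs more low values than were listed. The counting intervals and chi-square values above do use the recovered reads, as all values were whole reads within 0.01. Depth limits STEAP4 most, with 24 reads over the S310F samples.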

Other observations

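Chromosome 7 carries 8 of the 107 listed genes, and 5 of them were higher and 3 lower in S310F cells, STEAP1B and STEAP4 included. Without these genes 4 were higher and 2 lower, against 41 higher and 66 lower in the whole table. The listed gene nearest to STEAP4 is SEMA3A, which encodes a secreted semaphorin, 3.78 Mb away. It went the other way, with means of 19.3 ± 4.89 in EV and 69.0 ± 28.3 in S310F cells (SD, n = 3 each).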
